A study of Mus musculus with 24 samples.

Results

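Hepatocytes are kept in their differentiated state by a small set of transcription factors that bind, and act on, one another's genes. The 8 genes described here are Hnf4a, Foxa1, Foxa2, Foxa3, Cebpa, Cebpb, Onecut1 and Nr5a2. They were chosen by name, as members of that set, from the 23411 gene symbols of a mouse liver RNA-seq count table, and all 8 were measured well enough to be tested in every comparison. The libraries came from livers of α7HMZ mice, in which an exon swap leaves only the P2 isoforms of HNF4α, and of WT mice. Both genotypes were male, on a mixed 129/Sv and C57BL/6 background, 16 to 20 weeks old and kept on chow. Fed mice of each genotype were killed at 10:30, 13:30 or 20:30, and a fasted group of each genotype was killed at 10:30 after 12 h without food. Each of these 8 groups held 3 mice, which gives 24 libraries. The swap is a germline change and not limited to hepatocytes, and whole liver was sequenced, so fewer cells of a type and less RNA per cell cannot be told apart in any value below.

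HNF4α is a nuclear receptor that binds the control regions of genes for lipid, bile acid and drug metabolism. Its gene has a promoter, P1, that is active in adult liver, and another, P2, that is active in fetal liver and in some tumors, and the P2 isoforms lack an activation domain at the amino terminus. The FOXA proteins are winged helix factors that open compacted chromatin for other factors when the liver is formed. The C/EBP proteins are leucine zipper factors, of which C/EBPα maintains metabolic genes of the adult hepatocyte and C/EBPβ takes part in the acute phase response, in regeneration and in the response to fasting. ONECUT1, also called HNF6, acts in bile duct formation and in hepatocyte lipid and drug metabolism. NR5A2, also called LRH-1, is a nuclear receptor of bile acid and cholesterol genes.

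On the mouse assembly GRCm38, the Hnf4a gene (ENSMUSG00000017950.16) lies on the plus strand of chromosome 2, chr2:163506808-163572910. Chromosome 2 also holds Cebpb (chr2:167688915-167690418, plus strand), 4.12 Mb away, and Foxa2 (chr2:148042877-148046969, minus strand), 15.5 Mb away. Foxa3 (chr7:19013284-19023538, minus strand) and Cebpa (chr7:35119293-35121928, plus strand) share chromosome 7. Foxa1 (chr12:57540628-57546916, minus strand), Onecut1 (chr9:74861921-74891781, plus strand) and Nr5a2 (chr1:136842571-136960448, minus strand) lie elsewhere. The counts were summed over all exons of a gene, so reads from P1 and from P2 transcripts of Hnf4a could not be told apart. The library kit did not mark strand, and 312 exon bases of Cebpb overlap exons of Tmem189 on the opposite strand, so reads from that stretch cannot be assigned to one of the pair. Onecut1 shares 2171 of its 4113 exon bases with Gm20649, a long noncoding RNA gene on the same strand. Cebpa shares 51 exon bases with the antisense gene Gm45091. Neither Gm20649 nor Gm45091 is in the count table, so their reads in the shared stretches cannot be told from those of the member.

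The 2 promoters of Hnf4a are shown because the genotype concerns which of their products is made. Each window runs from 250 bases before to 50 bases after the start that RefSeq gives on GRCm38.p6, and the windows lie 40.3 kb apart. Capitals mark matches to motifs of the liver factors, searched on both strands, and the motifs were chosen with these sequences in view.
Hnf4a upstream window, P2, chr2:163506607-163506906, plus strand: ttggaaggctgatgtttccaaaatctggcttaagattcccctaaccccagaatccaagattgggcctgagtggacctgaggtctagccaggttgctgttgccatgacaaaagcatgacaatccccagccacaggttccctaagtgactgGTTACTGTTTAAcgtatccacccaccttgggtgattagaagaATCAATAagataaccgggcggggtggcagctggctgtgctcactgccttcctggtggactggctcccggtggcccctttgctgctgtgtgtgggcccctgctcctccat
Hnf4a downstream window, P1, chr2:163546905-163547204, plus strand: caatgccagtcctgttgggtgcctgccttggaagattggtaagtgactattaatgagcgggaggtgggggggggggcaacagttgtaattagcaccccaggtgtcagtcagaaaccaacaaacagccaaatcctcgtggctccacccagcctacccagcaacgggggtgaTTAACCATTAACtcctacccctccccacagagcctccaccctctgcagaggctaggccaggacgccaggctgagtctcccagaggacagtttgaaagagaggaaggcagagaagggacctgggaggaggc
Both windows held a match to the HNF1 motif, 101 bases before the start in the P2 window and, on the minus strand, 80 bases before it in the P1 window. Of 32851 RefSeq promoters of this length, 0.889% held that motif. The second run of capitals in the P2 window is the ONECUT motif ATCAATA, found 59 bases before the start, which 2.05% of the promoters held. All 8 members had entries, 12 windows in total. Of the other windows, that of Foxa1 held a FOXA match (TGTTTAC or TGTTTGC, in 8.48% of promoters), 1 of the Foxa2 windows held the ONECUT motif on the minus strand (214 bases before the start), and that of Onecut1 held an E-box (CACGTG, in 7.15%, a palindrome that matches on both strands). No window of a member held the HNF4 motif (CAAAGTCCA, CAAAGTTCA or CAAAGGTCA, in 1.33%), the C/EBP motif (TTGCGCAA or TTGCGTAA, in 0.35%) or the NR5A2 motif (CAAGGTCA, in 1.56%). These matches are letters in a window and were not measured as bound sites.

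Library totals ranged from 8.55 to 28.4 M counts, with a median of 18.9 M. All 12 hepatocyte markers were detected in every library, and their summed level ranged from 103676 to 205504 CPM, a count scaled to a common library size with TMM factors. Some libraries stood apart. The first replicate of fed α7HMZ livers at 10:30 had 50.8% of its counts in the ribosomal RNA gene Rn45s, against at most 3.76% in any other α7HMZ library and 0.405% in any WT library. The 8 cholangiocyte markers summed to 119 and 107 CPM in replicates 1 and 3 of fed α7HMZ livers at 20:30, against 88.9 CPM or less in all other libraries. The second replicate of fed WT livers at 20:30 held 20.0 CPM of pancreatic acinar markers, against at most 5.88 CPM elsewhere. This WT library also had the highest level of the cholangiocyte marker Krt19, 18.3 CPM, beside 14.3 and 12.5 CPM in the α7HMZ replicates 1 and 3. Its total of 8.55 M counts was the lowest of all. The 8 Kupffer cell markers summed to 902 CPM in fasted α7HMZ replicate 3, against at most 402 CPM elsewhere, and to 96.9 CPM in replicate 2 of fed α7HMZ livers at 20:30, against 199 CPM or more in the other fed libraries. Values without a library named here are given where they change a result. Per the labels, one flow cell carried the fed 10:30 libraries of α7HMZ and WT with the fasted ones of WT, and the rest were run on another. Each fed comparison of α7HMZ with WT, the fasting comparison in WT, and 20:30 against 13:30 lie within a flow cell. For fasting in α7HMZ, for α7HMZ against WT in fasted livers, and for the difference between these fasting responses, the flow cell and the groups cannot be told apart. In the test of genotype by time, 10:30 lay on one flow cell and the later times on the other. Time and flow cell cannot be told apart there either.

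The factors differed widely in level. Per kilobase of exon, Hnf4a averaged 198 ± 42.4 CPM and Cebpa 113 ± 23.3 CPM over the 24 libraries (SD), and Hnf4a was above Cebpa in 24 of them. Foxa3 at 31.3 ± 9.85 CPM per kilobase and Cebpb at 31.3 ± 11.6 did not differ beyond their spread, with Foxa3 the higher in 15 of 24 libraries. Foxa2 averaged 13.5 ± 4.45 and Nr5a2 7.88 ± 1.67 CPM per kilobase, and Foxa2 was the higher in 20 of 24 libraries. Onecut1 at 6.66 ± 7.54 and Foxa1 at 6.65 ± 2.32 CPM per kilobase could not be ordered, and they changed places when the longest transcript was used as the length.

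**Figure D1:**
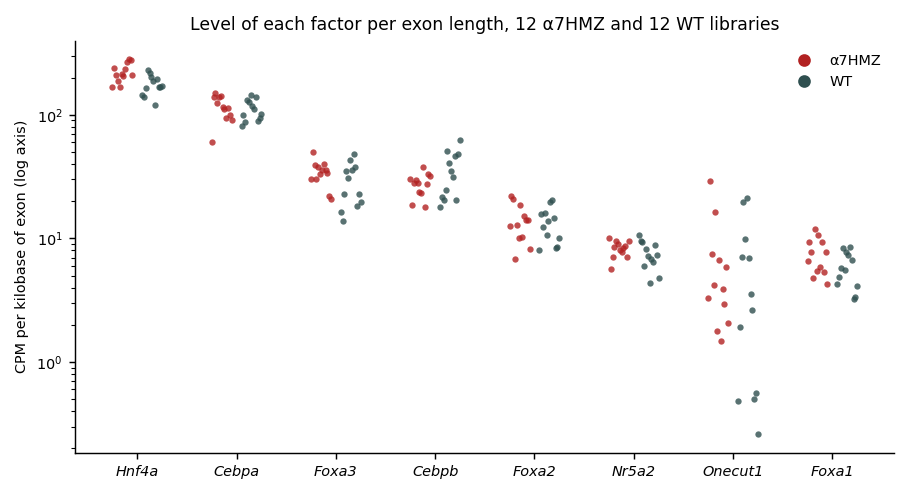
Level of each factor in CPM per kilobase of exon (log axis), with 1 point for each of 12 α7HMZ libraries (left) and 12 WT libraries (right). Hnf4a and Cebpa sit above the other factors, and the points of Onecut1 spread from 0.262 to 29.2 CPM per kilobase.

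Onecut1 differed from the other members in its spread between mice. Its highest library, at 120 CPM, was 112-fold above its lowest, at 1.08 CPM, whereas the same ratio lay between 2.35 for Hnf4a and 3.72 for Foxa1 among the other 7. Its biological coefficient of variation in the fed livers, which measures the spread within groups beyond counting error, was 0.70, above that of 99.6% of the 13334 genes tested. The median gene had 0.132, and Hnf4a had 0.148. The lowest Onecut1 library held 22 reads of the gene and the deepest in the gene held 1744.

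To ask whether the genotype, the time of day or fasting changed the factors, counts were compared with the quasi-likelihood test of edgeR, and p-values were adjusted by the Benjamini-Hochberg method over all genes tested (called: adjusted p under 0.05). These p-values reflect how far mice of a group differ. At 10:30 in fed livers, 1 of 8 members was called, Foxa3, which was higher in α7HMZ, whereas 17.3% of all genes were called. At this time 5 of 8 members and 30.7% of all genes had an unadjusted p under 0.05. At 13:30 none of the 8 was called by edgeR (none by DESeq2 either), against 12.8% of all genes by edgeR. None had an unadjusted p under 0.05 by edgeR, against 24.9% of all genes. At 20:30 only Hnf4a was called, higher in α7HMZ, against 19.1% of all genes, with 2 members and 33.2% of all genes at an unadjusted p under 0.05. Averaged over the fed times, 1 member was called, Foxa3, against 26.5% of all genes, with 2 members and 37.0% of all genes at that unadjusted level. In fasted livers, 3 members were called, Hnf4a, Foxa1 and Onecut1, all higher in α7HMZ, against 15.5% of all genes, and the same 3 members against 30.2% of all genes had an unadjusted p under 0.05. No test of the members as a set was run. The median log2 fold change of the members was 0.55 at 10:30, -0.15 at 13:30, -0.12 at 20:30 and 0.38 in fasted livers, beside medians over all genes tested of 0.04, 0.00, 0.02 and 0.00.

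**Figure D2:**
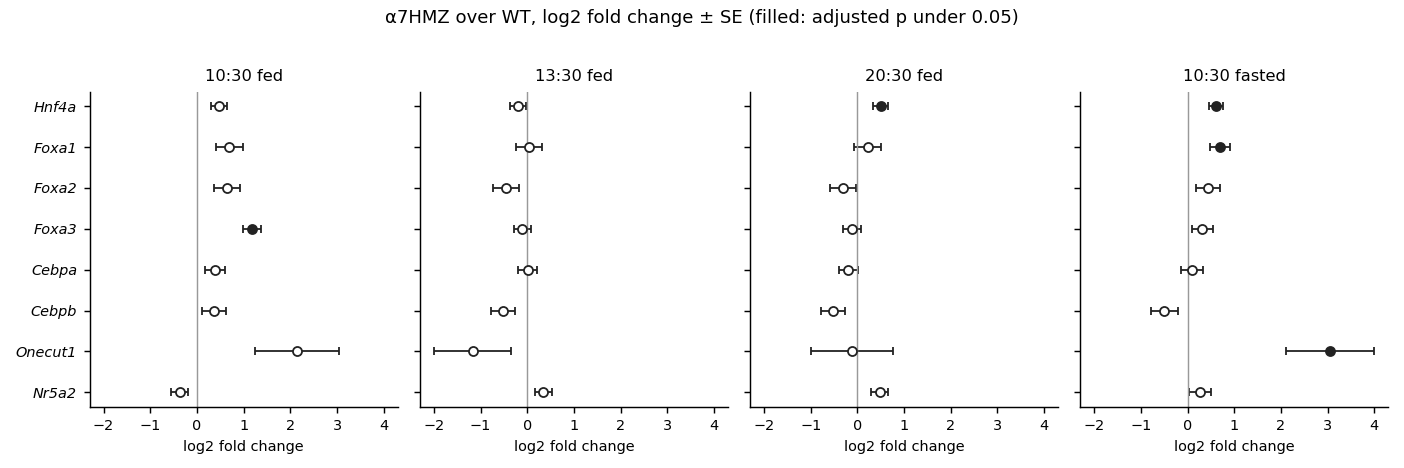
Log2 fold change of α7HMZ over WT livers (x axis) with its SE for each factor (y axis) at the 3 fed times and in fasted livers, from 3 mice a group. Filled points have an adjusted p under 0.05, which are Foxa3 at 10:30, Hnf4a at 20:30 and Hnf4a, Foxa1 and Onecut1 in fasted livers.

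The test of genotype by time, which asks whether the genotype difference varied over the 3 fed times, called 1 member, Foxa3, against 4.99% of all genes, while 6 of 8 members and 26.6% of all genes had an unadjusted p under 0.05. For 20:30 against 13:30 in α7HMZ livers, edgeR called 0 of 8 members (0 by DESeq2), against 5.21% of all genes by edgeR. In WT livers edgeR called 0 of 8 (0 by DESeq2), against 21.6% of all genes by edgeR. At an unadjusted p under 0.05 there was 1 member in α7HMZ, against 19.3% of all genes, and there were 2 in WT, against 35.9% of all genes. Fasting called 0 members in α7HMZ livers by edgeR (1 by DESeq2), against 12.6% of all genes by edgeR. By edgeR 5 members had an unadjusted p under 0.05, against 26.9% of all genes. In WT livers fasting called 1 member, Cebpb, against 22.7% of all genes, and 3 at an unadjusted p under 0.05, against 36.2% of all genes. The difference between the 2 fasting responses called 0 members by edgeR (0 by DESeq2), against 0.252% of all genes by edgeR. By edgeR 1 member, Foxa3, had an unadjusted p under 0.05, against 14.9% of all genes.

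**Figure D3:**
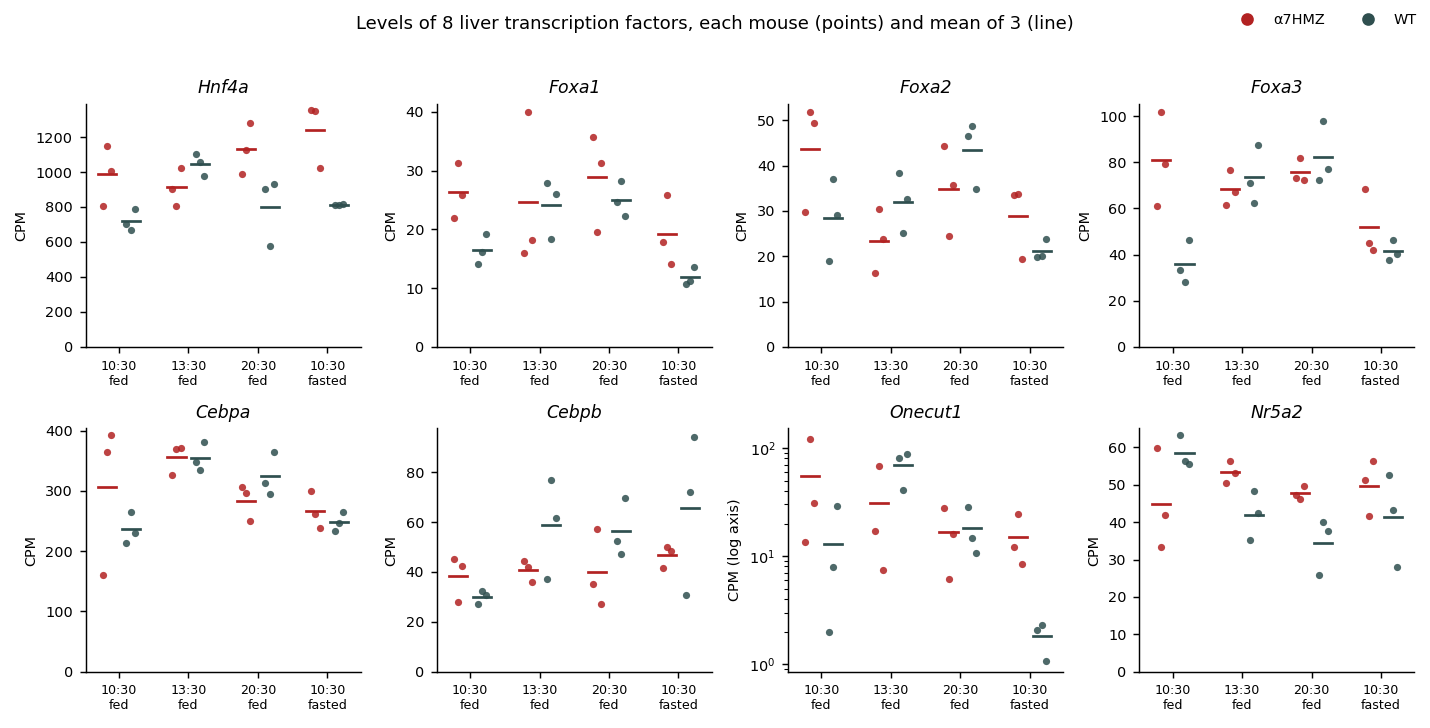
Level of each factor in CPM (y axis, log axis for Onecut1) in every mouse, by time and feeding (x axis), with α7HMZ on the left of WT in each pair and a line at the mean of 3 mice. The fed groups at 10:30 stand apart for Foxa3, and the fasted WT livers sit at 2.31 CPM or less for Onecut1.

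Hnf4a, counted over both promoters, was higher in α7HMZ mice than in WT mice in the fed livers of 20:30 and in the fasted state. In fed livers at 20:30 it had 987, 1129 and 1282 CPM in the α7HMZ mice, against 900, 575 and 932 CPM in the WT mice. The groups did not overlap, and the log2 fold change was 0.50 ± 0.17 (SE, adjusted p = 0.0443). The lowest value, 575 CPM, belongs to the WT library with the acinar markers, and it was the lowest Hnf4a level of all 24 libraries. Without it the difference fell to 0.31 (adjusted p = 0.178), and its part in the result was not tested further. The call also ended without replicate 3 (0.40, adjusted p = 0.164) or replicate 2 (0.50, adjusted p = 0.0733) of the α7HMZ group at 20:30. It ended too without any 1 of 8 libraries of other times (WT at 10:30 or 13:30, each of 3 replicates, and α7HMZ at 13:30, replicates 1 and 2), where the value stayed between 0.49 and 0.50 and the adjusted p lay between 0.0504 and 0.0614. With only the groups of 20:30 in the fit it missed the threshold as well.

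In fasted livers Hnf4a had 1352, 1351 and 1020 CPM in the α7HMZ mice, against 810, 811 and 820 CPM in the WT mice. Every fasted α7HMZ liver was above every fasted WT liver, and the 3 WT values lay within 1.01-fold of each other (log2 fold change 0.60 ± 0.15, adjusted p = 0.0154). These groups were run on different flow cells, which cannot be told apart from the genotype. Without α7HMZ replicate 1 (0.54), α7HMZ replicate 2 (0.54) or WT replicate 2 (0.60) the adjusted p lay between 0.0515 and 0.0579.

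At 10:30 in fed livers Hnf4a had 808, 1147 and 1006 CPM in α7HMZ mice, against 700, 668 and 788 CPM in WT mice. These groups did not overlap either, but the difference of 0.46 ± 0.17 missed the threshold (adjusted p = 0.0629). It passed without the α7HMZ library rich in Rn45s (0.57, adjusted p = 0.0294) and without the WT library with acinar markers (0.46, adjusted p = 0.0274). At 13:30 the order was turned round, with 905, 806 and 1025 CPM in α7HMZ mice, against 1105, 1054 and 978 CPM in WT mice. Here the groups overlapped (-0.20 ± 0.17, adjusted p = 0.530). The test of genotype by time gave Hnf4a an adjusted p of 0.0998, so that a difference between the times was not shown.

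The Hnf4a values moved most among the alternatives with offsets for GC content followed by full quantile scaling, the scaling named in the study's methods. The log2 fold change of α7HMZ over WT was then 0.79 at 10:30 (adjusted p = 0.0013), 0.17 at 13:30 and 1.00 at 20:30 (adjusted p = 1.95e-04), with the sign at 13:30 turned. Averaged over the fed times it was 0.65 (adjusted p = 1.62e-05), against 0.26 ± 0.10 (adjusted p = 0.0580) with TMM scaling. The TMM value passed without replicate 1 or 3 of WT at 20:30 or replicate 1 of α7HMZ at 10:30 or 20:30 (0.28 to 0.29, adjusted p from 0.0322 to 0.0449). In the fasted livers the value with the GC content offsets was 1.00 (adjusted p = 6.03e-04). In WT livers, 20:30 against 13:30 gave -0.67 (adjusted p = 0.00628) with these offsets and -0.37 ± 0.17 (adjusted p = 0.114) with TMM scaling. Fasting left Hnf4a at 0.33 ± 0.15 in α7HMZ livers (adjusted p = 0.165) and 0.18 ± 0.15 in WT livers (adjusted p = 0.398), both short of the threshold.

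Among the FOXA genes, Foxa3, which in the mouse helps to keep up glucose production in long fasts, was higher in fed α7HMZ livers of 10:30. It had 61.3, 102 and 79.4 CPM in α7HMZ mice, against 33.4, 28.3 and 46.2 CPM in WT mice. The groups stood apart, and the difference of 2.26-fold (log2 fold change 1.18 ± 0.19, adjusted p = 3.24e-04) kept its call without any 1 of the 18 fed libraries, with values from 0.98 to 1.40. Without the library rich in Rn45s it was 1.32 (adjusted p = 1.15e-04).

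At 13:30 Foxa3 had 61.5, 76.6 and 67.2 CPM in α7HMZ mice, against 71.1, 62.2 and 87.5 CPM in WT mice. At 20:30 it had 73.3, 81.8 and 72.3 CPM in α7HMZ mice, against 72.2, 97.9 and 77.2 CPM in WT mice. The groups overlapped at both times, with log2 fold changes of -0.10 ± 0.19 and -0.12 ± 0.19. The genotype difference varied over the times (genotype by time, F = 15.2, adjusted p = 0.0187), with groups that stood apart at 10:30 and overlapped at the other times. The 10:30 libraries lay on a flow cell of their own among the fed ones, which cannot be told apart from the time. The genotype by time call ended without WT replicate 1 (adjusted p = 0.0585), WT replicate 2 (0.0617) or α7HMZ replicate 2 (0.0507) of the 10:30 groups. The fed average for Foxa3, 0.32 ± 0.11 (adjusted p = 0.0378), averages these unlike differences, and it missed the threshold in 10 of the 18 fits that left out 1 fed library (0.25 to 0.32, highest adjusted p = 0.0937). The libraries in question were replicates 1 and 2 of WT at 10:30, 1 and 2 of WT at 13:30, 1 and 3 of WT at 20:30, 2 of α7HMZ at 10:30, 2 and 3 of α7HMZ at 13:30 and 2 of α7HMZ at 20:30.

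Foxa3 did not pass the test between fasted and fed livers of either genotype. Fasted α7HMZ livers had 68.3, 45.1 and 42.0 CPM, beside the 61.3 to 102 CPM of fed α7HMZ livers (log2 fold change -0.64 ± 0.22, adjusted p = 0.0783). Fasted WT livers had 37.5, 46.3 and 40.4 CPM, beside the 28.3 to 46.2 CPM of fed WT livers (0.21 ± 0.22, adjusted p = 0.535). The difference between these responses, -0.85 ± 0.32, had an adjusted p of 0.270. Between the fasted groups Foxa3 stood at 0.32 ± 0.22 (adjusted p = 0.370). The α7HMZ response passed without the fed library rich in Rn45s (-0.80, adjusted p = 0.0332) and without fasted α7HMZ replicate 1 (-0.89, adjusted p = 0.0281), and it lay between flow cells.

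Foxa1, which with Foxa2 is needed for liver specification, was called only between the fasted groups. It had 17.8, 25.8 and 14.2 CPM in fasted α7HMZ mice, against 10.7, 11.3 and 13.7 CPM in fasted WT mice. The groups did not overlap, with gaps that were small beside the spread of the α7HMZ mice (log2 fold change 0.69 ± 0.21, adjusted p = 0.0385). Without α7HMZ replicate 2 the difference was 0.43 (adjusted p = 0.171), and the call ended without 4 other libraries as well, namely α7HMZ replicate 1 (0.75), WT replicates 1 (0.63) and 2 (0.65) of the fasted groups and WT replicate 2 of the fed group (0.69). It ended too with all 24 libraries in the fit (adjusted p = 0.0938) and with only the groups compared (adjusted p = 0.0674). At 10:30 in fed livers Foxa1 had 21.9, 31.3 and 25.8 CPM in α7HMZ mice, against 14.2, 16.2 and 19.2 CPM in WT mice. These did not overlap, with a difference of 0.69 ± 0.29 and an adjusted p of 0.116, which passed without α7HMZ replicate 2 of 13:30 (0.67, adjusted p = 0.0400). That library held the highest Foxa1 level of all, 39.9 CPM, beside 16.0 and 18.2 CPM in the other mice of its group. At 13:30 and 20:30 the Foxa1 differences were 0.04 ± 0.28 and 0.22 ± 0.29, with groups that overlapped.

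Foxa2 was called in no comparison. At 10:30 in fed livers it had 29.8, 51.9 and 49.4 CPM in α7HMZ mice, against 19.1, 37.0 and 29.2 CPM in WT mice, and the groups overlapped (0.63 ± 0.28, adjusted p = 0.132). At 13:30 and 20:30 the differences were -0.45 ± 0.28 and -0.31 ± 0.28. Its genotype by time test gave an adjusted p of 0.138. In fasted livers it had 33.6, 33.6 and 19.5 CPM in α7HMZ mice, against 19.8, 20.2 and 23.8 CPM in WT mice, so that 2 of the α7HMZ mice lay above and 1 lay below all WT mice (0.44 ± 0.26, adjusted p = 0.286). With fasting, Foxa2 stood at -0.59 ± 0.26 in α7HMZ livers (adjusted p = 0.162) and at -0.41 ± 0.26 in WT livers (adjusted p = 0.280), neither past the test. Foxa1 likewise stood at -0.44 ± 0.20 in α7HMZ livers (adjusted p = 0.181) and at -0.46 ± 0.21 in WT livers (adjusted p = 0.128), and the α7HMZ difference passed without fasted replicate 2 (-0.71, adjusted p = 0.0379).

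Cebpa was called in no comparison with all libraries in. At 13:30 it had 327, 369 and 372 CPM in α7HMZ mice, against 348, 335 and 381 CPM in WT mice, and the log2 fold change was 0.01 ± 0.21. At 10:30 in fed livers it had 160, 365 and 392 CPM in α7HMZ mice, against 214, 264 and 230 CPM in WT mice. The value of 160 CPM, the lowest of all 24 libraries, belongs to the α7HMZ library rich in Rn45s, and the other α7HMZ livers were above every WT liver. With that library the difference was 0.38 ± 0.21 (adjusted p = 0.244), and without it 0.67 (adjusted p = 0.00143). The genotype by time test of Cebpa likewise gave an adjusted p of 0.379 with that library and 0.0108 without it. In α7HMZ livers the fasting difference was -0.20 ± 0.24 (adjusted p = 0.652) with it and -0.50 (adjusted p = 0.0241) without it. A fit with the Rn45s counts removed was among the alternatives, and its Cebpa value is not given here. Such a fit changes the scaling and not the Cebpa count itself. How Rn45s reads bear on that count was therefore not tested. At 20:30 the genotype difference of Cebpa was -0.19 ± 0.21, in fasted livers it was 0.09 ± 0.24, and the fasting difference in WT livers was 0.08 ± 0.24.

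Cebpb, the C/EBP gene known to respond to fasting and to acute phase signals, rose with fasting in WT livers. Fasted WT mice had 30.9, 71.9 and 94.2 CPM, against 26.9, 32.4 and 30.7 CPM in fed WT mice. The first fasted mouse lay within the fed range and the others lay above it (log2 fold change 1.13 ± 0.30, adjusted p = 0.0158). The call ended without fasted WT replicate 3 (0.78, adjusted p = 0.0868), fasted WT replicate 2 (1.06, adjusted p = 0.0508) or fed WT replicate 1 (1.05, adjusted p = 0.0659), and with the offsets for GC content and full quantile scaling (0.53, adjusted p = 0.179). Fasted α7HMZ mice had 41.5, 49.8 and 48.5 CPM, against 45.2, 28.1 and 42.2 CPM in fed α7HMZ mice, and these groups overlapped (0.28 ± 0.30, adjusted p = 0.592). The difference between the 2 fasting responses was -0.85 ± 0.42 (adjusted p = 0.357), so that a difference between the genotypes was not shown.

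In the fed livers at 10:30 the Cebpb difference was 0.37 ± 0.26 (adjusted p = 0.365), with groups that overlapped. In fed livers at 13:30 Cebpb had 44.3, 42.0 and 35.9 CPM in α7HMZ mice, against 37.2, 77.0 and 61.7 CPM in WT mice. At 20:30 it had 35.2, 57.1 and 27.1 CPM in α7HMZ mice, against 52.4, 47.3 and 69.8 CPM in WT mice. The groups overlapped at both times, with differences of -0.52 ± 0.25 (adjusted p = 0.214) and -0.51 ± 0.26 (adjusted p = 0.173). Without α7HMZ replicate 2 of 20:30 the second of these was -0.86 (adjusted p = 0.0275). Between the fasted groups the difference was -0.50 ± 0.29 (adjusted p = 0.278), and without fasted WT replicate 1, the mouse at 30.9 CPM, it was -0.83 (adjusted p = 0.0143).

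Onecut1 had its lowest levels in fasted WT livers. Fasted α7HMZ mice had 12.1, 24.3 and 8.50 CPM, against 2.06, 2.31 and 1.08 CPM in fasted WT mice. Every α7HMZ value was above every WT value, a difference of 8.30-fold (log2 fold change 3.05 ± 0.95, adjusted p = 0.0446). The WT values rest on 42, 39 and 22 reads and the α7HMZ values on 231, 638 and 149 reads. Reads of Gm20649 from the exons it shares with Onecut1 may be among them. The difference kept its direction without any 1 of the 12 libraries at 10:30 (2.51 to 3.31), and the adjusted p passed 0.05 without 7 of them (highest 0.141). These were replicates 1 (3.19) and 2 (2.51) of fasted α7HMZ, 1 (3.17), 2 (3.25) and 3 (2.78) of fasted WT, 2 of fed WT (3.05) and 3 of fed α7HMZ (3.06). With the offsets for GC content the adjusted p was 0.0572. The groups lay on different flow cells. The cholangiocyte markers, a list that holds other genes of the biliary lineage, summed to 68.8 to 86.3 CPM in fasted α7HMZ livers and 75.3 to 88.1 CPM in fasted WT livers, so they were not lower in the WT livers that had the least Onecut1.

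Fed mice varied from one to the next. At 10:30 Onecut1 had 13.5, 120 and 30.8 CPM in α7HMZ mice, against 2.00, 7.94 and 28.9 CPM in WT mice. The difference of 2.14 ± 0.89 (adjusted p = 0.110) was 4.41-fold, yet the groups overlapped, and it ranged from 0.86 to 3.51 as single libraries were left out. Without WT replicate 3 it was 3.51 and passed (adjusted p = 0.0350). At 13:30 it had 17.2, 67.5 and 7.36 CPM in α7HMZ mice, against 80.5, 40.5 and 87.4 CPM in WT mice, a difference of the other sign (-1.17 ± 0.83, adjusted p = 0.432). At 20:30 it had 27.8, 6.07 and 16.1 CPM in α7HMZ mice, against 28.6, 14.6 and 10.8 CPM in WT mice (-0.12 ± 0.87).

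The WT group means of Onecut1 were 12.9 ± 14.1 CPM at 10:30, 69.4 ± 25.3 at 13:30 and 17.99 ± 9.38 at 20:30 (SD, n = 3 each). In WT livers 20:30 against 13:30 gave -1.92 ± 0.87 with groups that did not overlap (adjusted p = 0.121). Fasting in WT livers gave -2.80 ± 0.96, just short of the threshold (adjusted p = 0.0516), and 1 fed mouse, at 2.00 CPM, lay within the fasted range. This value depended on fed WT replicate 3, without which it was -1.42 (adjusted p = 0.312). It passed without fed WT replicate 1 (-3.34, adjusted p = 0.0216), without fed α7HMZ replicates 1 or 2, or without fasted α7HMZ replicate 3 (-2.80 to -2.78, adjusted p from 0.0267 to 0.0455), and with DESeq2 (-2.83, adjusted p = 0.0211). In α7HMZ livers the fasting difference was -1.85 ± 0.80 (adjusted p = 0.153).

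**Figure D4:**
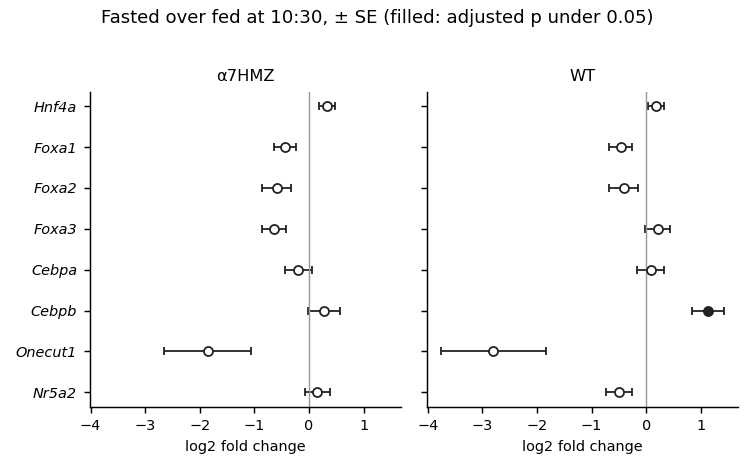
Log2 fold change of fasted over fed livers at 10:30 (x axis) with its SE for each factor (y axis), in α7HMZ (left) and WT (right), from 3 mice a group. Cebpb in WT (1.13) is the filled point, with an adjusted p under 0.05, and Onecut1 lies lowest in both genotypes.

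Nr5a2 was the only member with a lower mean in α7HMZ mice than in WT mice at 10:30, and its mean was higher at the later times, with no difference past the test. At 10:30 in fed livers it had 59.8, 33.2 and 41.9 CPM in α7HMZ mice, against 63.2, 56.5 and 55.6 CPM in WT mice. The overlap came from the α7HMZ library rich in Rn45s, at 59.8 CPM, and the difference was -0.37 ± 0.18 (adjusted p = 0.169) with it and -0.65 (adjusted p = 0.0127) without it. At 13:30 Nr5a2 had 50.6, 56.3 and 53.1 CPM in α7HMZ mice, against 35.1, 48.4 and 42.4 CPM in WT mice. At 20:30 it had 47.2, 46.1 and 49.8 CPM in α7HMZ mice, against 25.9, 40.1 and 37.7 CPM in WT mice. At both later times every α7HMZ liver was above every WT liver, with differences of 0.35 ± 0.18 (adjusted p = 0.242) and 0.47 ± 0.18 (adjusted p = 0.0757) that did not pass. The 20:30 difference passed without replicate 1 (0.46, adjusted p = 0.0362) or 2 (0.47, adjusted p = 0.0462) of fed α7HMZ at 10:30. The genotype by time test gave an adjusted p of 0.0789, and 0.0101 without the library rich in Rn45s. Fasting in WT livers gave 52.5, 43.3 and 28.0 CPM, below each fed WT liver (-0.50 ± 0.23, adjusted p = 0.139). In α7HMZ livers the fasting difference was 0.15 ± 0.23, and between the fasted groups the genotype difference was 0.26 ± 0.23 (adjusted p = 0.484).

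Without the library rich in Rn45s, 4 members were called at 10:30 in fed livers (Hnf4a, Foxa3 and Cebpa higher, Nr5a2 lower) in place of 1, and 3 members were called by genotype and time (Foxa3, Cebpa and Nr5a2) in place of 1. With all libraries in, 17.3% of all genes were called at 10:30 and 4.99% by genotype and time. The shares in the fits of this paragraph that left libraries out are not given here. Without those shares the rise cannot be read as a result about the members in particular. Without 4 of the libraries that stood apart (the one rich in Rn45s, replicates 1 and 3 of α7HMZ and 2 of WT at 20:30), 5 members were called at 10:30, with Foxa2 added at 0.81 (adjusted p = 0.0425), and 5 by genotype and time. None was then called at 20:30, where 1 α7HMZ liver was left, and Hnf4a stood there at 0.30 (adjusted p = 0.282).

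The other liver transcription factors, a list of 34 that includes partners of the 8 members, had 5 higher and 5 lower in α7HMZ livers averaged over the fed times, 29.4% of the list against 26.5% of all genes. The largest among the named ones was Nr1i3, the xenobiotic receptor CAR, which fell by 3.72 ± 0.12 on the log2 scale (adjusted p = 7.39e-14). At 10:30 Nr1i3 averaged 5.07 ± 1.68 CPM in fed α7HMZ livers and 89.1 ± 10.5 CPM in fed WT livers (SD, n = 3 each). Nr1h3, the oxysterol receptor LXRα, was lower (-0.48), and Nfic, a nuclear factor I gene, was higher (0.58). Of 20 cofactors and inhibitors, 6 were higher and 3 lower, or 45% of the list. Those named were Tle3, a corepressor of the Groucho family (0.54), Src, a kinase gene (0.87), and Ncoa1, a coactivator (0.36). Per earlier work that the study cites, SRC directly phosphorylates P1 but not P2 isoforms of HNF4α.

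With fasting in WT livers, 9 of 33 other liver factors tested rose and 2 fell, beside 22.7% of all genes called in either direction. Atf5, a bZIP factor of the stress response, rose by 1.64 ± 0.17 and Nr1i3 by 1.55 ± 0.19 on the log2 scale. Of the 20 cofactors 1 rose, Crtc2, the CREB coactivator of gluconeogenesis (0.92 ± 0.12), and 2 fell, among them Ncoa3, a nuclear receptor coactivator (-0.78 ± 0.20).

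Known target genes of the members were set beside the factors' own levels. The target lists share genes with each other, and no list was tested as a set. In the fed average 26.5% of all genes were called, in either direction. Averaged over the fed times, 22 of 30 HNF4α targets were lower in α7HMZ and 0 were higher, with a median log2 fold change of -0.46, beside 0.03 over all genes. Among them were Apoc2, an activator of lipoprotein lipase (-1.72), Apoa4 (-3.96) and Apoc3 (-1.93), genes of triglyceride-rich lipoproteins. Of 15 FOXA targets 11 were lower and 0 higher, with Tf, the transferrin gene, at -0.92, Apob at -0.64, the fetal gene Afp at -0.93 and Ttr, the transthyretin gene, at -0.26. Of the FOXA genes themselves, Foxa3 was called higher (0.32), and Foxa1 (0.31) and Foxa2 (-0.04) were not called.

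Of 23 C/EBP targets 10 were lower and 3 higher. Gys2, the liver glycogen synthase (-0.89), and Crp (-0.58) were lower, while Adh1, an alcohol dehydrogenase (0.60), and Hp, the haptoglobin gene (0.51), were higher. Of 15 NR5A2 targets 5 were lower and 1 higher, which was Vnn1, a pantetheinase (1.26). Cyp8b1, the 12α-hydroxylase of bile acid synthesis and also an HNF4α target, was lower (-3.45), as were Cyp2c55 (-1.58) and Abcb11, the bile salt export pump (-0.26). Of 13 ONECUT1 targets 6 were lower and 1 higher, with Cyp2c44 at -1.75, Cyp2c29 at -2.01 and Pfkfb1 at -0.60. The 8 hepatocyte markers lower in α7HMZ, of 11 tested, also moved with genotype, and their part in these counts was not tested.

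**Figure D5:**
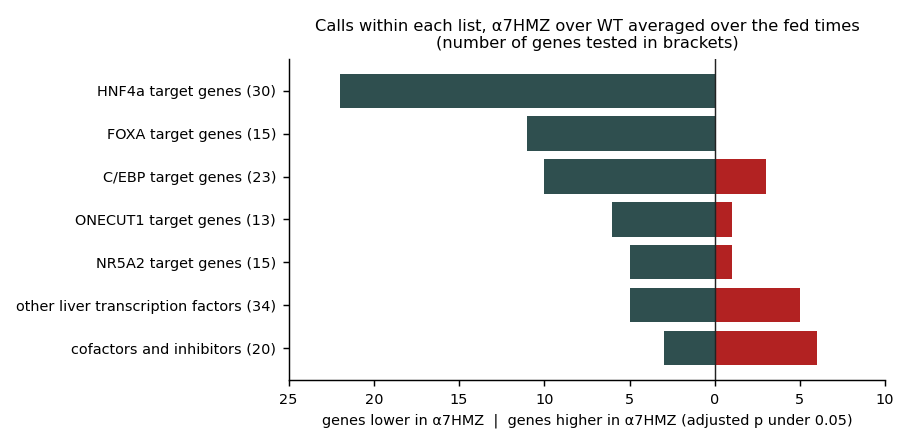
Number of genes of each list (y axis, genes tested in brackets) that were lower (left of 0) or higher (right of 0) in α7HMZ than in WT livers, averaged over the fed times at an adjusted p under 0.05. The HNF4α and FOXA target lists have 22 and 11 genes on the lower side and 0 on the other.

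With fasting in WT livers the same lists moved in both directions, with 6 HNF4α targets higher and 8 lower, 2 and 4 FOXA targets, 3 and 4 C/EBP targets, 4 and 4 NR5A2 targets, and 3 and 5 ONECUT1 targets. Of all genes tested, 22.7% were called in this comparison, in either direction. Markers of other cells also moved with fasting in WT livers, where 4 of 7 cholangiocyte markers were higher and 6 of 8 endothelial, 3 of 8 Kupffer and 3 of 8 stellate markers were lower, and their part in the result for Cebpb was not tested. Fasted α7HMZ replicate 3, with 902 CPM of Kupffer markers against 98.5 to 208 CPM in the other fasted libraries, was the lowest of its group for Hnf4a, Foxa1, Foxa2, Foxa3, Cebpa and Onecut1, the highest for Nr5a2 and the middle one for Cebpb. Without it the fasted difference of α7HMZ over WT was 0.71 for Hnf4a (adjusted p = 0.00920), 0.85 for Foxa1 (adjusted p = 0.0141) and 3.31 for Onecut1 (adjusted p = 0.0449), each larger than with it.

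For each member, the genes whose log2 CPM followed it most closely over the 24 libraries were listed from 10910 genes whose mean log2 CPM was 1 or more. All 24 points share the genotype, time and flow cell differences, so Pearson's r describes these libraries and no p is given. Hnf4a was followed most closely by Iba57 (r = 0.82 over all libraries, 0.82 within the 9 of the first flow cell and 0.77 within the 15 of the second), then by Irak1 and Ttpal. Foxa1 was followed by Cish (0.87, and 0.85 within each flow cell), Phlda1 and Rgs3. Foxa2 was followed by Cish too (0.77), by B4galt1, and by Foxa1 itself (0.76). Foxa3 was followed by Polr2h (0.86), Tmem120b and Pcid2, and Cebpa by Acvr2b (0.89), Polr2h (0.84) and Ubac1. Cebpb was followed by Pim3 (0.84), Csnk1g2 and Itga2b. Onecut1 was followed by Tmx4 (0.88, with 0.95 and 0.73 within the flow cells), Cbfb and Vgll4, and Nr5a2 by Notch2 (0.85), Psd3 and Stard13. Among the 8 members, Foxa1 and Foxa2 were the only pair in which one was among the 3 closest genes of the other.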

How the data were processed

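Poly(A) RNA of 24 mouse livers (8 groups of 3) was sequenced with 75-bp single-end reads on an unstranded library. Per the labels and the study's methods, the authors aligned the reads to mm10 with TopHat2 2.1.1, HTSeq 0.6.1 then gave the reads of each gene, and the deposited table of raw counts was used as it is. The deposited FPKM tables were not used here. Groups, times and flow cells came from the labels.

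Tests were run with edgeR 4.0.16 in R 4.3.3, on genes kept by filterByExpr and scaled by TMM, using glmQLFit and glmQLFTest. P-values were adjusted by Benjamini-Hochberg and called under 0.05. A first fit took the 18 fed libraries (13334 genes tested) and a second the 12 libraries of 10:30 (13103 genes tested), since groups of a fit share the estimate of the spread. The SE of a log2 fold change is its size over the root of F. CPM are counts over the library size times the TMM factor of all 24 libraries. Exon lengths, positions and overlaps came from GENCODE M21, and promoters from RefSeq on GRCm38.p6, the same assembly as mm10. On simulated counts with known changes of 2-fold up or down, 94.9% of 198 changed genes were recovered for the fed average (13153 genes) and 62.3% of 199 for the genotype difference in fasted livers (12989 genes).

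The 8 members, the gene lists, the motifs, the comparisons and the alternatives were chosen with earlier results of these data known. The text names the members with their values in most comparisons, from each other list the 4 genes with the smallest p in the fed average, for fasting in WT livers the 2 with the smallest p of the liver factor and cofactor lists, and for each member the 3 genes with the highest Pearson's r. Some other genes that this rule selects are not reported here. The alternatives changed the scaling (relative log expression, upper quartile, or offsets for GC content with full quantile scaling, written here after the methods' description with limma 3.58.1), the tool (DESeq2 1.42.0), the filter (none, or 50 counts in 3 libraries), the libraries of a fit (all 24, or only the groups compared), the model (a replicate block), the null (a 1.2-fold change), and the input (Rn45s, 4 of the libraries that stood apart, or each library left out). Replicates differed by a chi-square of at least 11.0 per degree of freedom, well above sampling noise, and each library was counted on its own. Figures were drawn with matplotlib.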

Additional observations from a re-analysis of the deposited data

Results flagged for a closer look

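The effect of genotype on Foxa3 differed between the fed times, by a test of the difference itself (edgeR, genotype by time over 3 times, adjusted p = 0.0187). The log2 fold change of α7HMZ over WT was 1.18 ± 0.19 at 10:30, -0.10 ± 0.19 at 13:30 and -0.12 ± 0.19 at 20:30. The 10:30 libraries of both genotypes shared a flow cell that held no other fed time, so the time and the flow cell cannot be told apart for this difference between times.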

How the results depend on the processing

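The number of members called changed with the processing in most comparisons. The share of all genes called in each changed fit is not given here. Without those shares the counts in this section cannot be read as a result about the members in particular. With 1 library left out at a time, between 1 and 4 members were called for genotype at 10:30 (1 with all libraries), 0 and 2 at 20:30 (1), 0 and 2 for the fed average (1), 0 and 3 for genotype by time (1), 0 and 2 for fasting in WT (1), 0 and 2 for fasting in α7HMZ (0), and 0 and 3 for genotype in fasted livers (3). For genotype at 13:30, both contrasts of 20:30 with 13:30 and fasting by genotype, 0 were called in every such fit.

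GC content and full quantile offsets called 2 members for genotype at 10:30, 3 for the fed average, 1 for 20:30 against 13:30 in WT, 0 for fasting in WT and 1 for fasting in α7HMZ. DESeq2 called 2 at 10:30, 2 for the fed average, 3 for genotype by time, 2 for fasting in WT and 1 for fasting in α7HMZ. Fitting only the groups compared called 2 at 10:30, 0 at 20:30, 1 for 20:30 against 13:30 in WT and 3 for fasting in WT. All 24 libraries in 1 fit called 2 for the fed average, 2 for fasting in WT and 1 for fasting in α7HMZ. Upper quartile factors and the filter of 50 counts each called 2 for the fed average, and no filter called 2 for fasting in WT. The test against a 1.2-fold change called 0 at 20:30, 0 for the fed average and 0 of the 3 in fasted livers, so those differences were not shown to exceed 1.2-fold. Leaving out 4 libraries (α7HMZ 10:30 replicate 1, α7HMZ 20:30 replicates 1 and 3, and WT 20:30 replicate 2) called 5 at 10:30, 0 at 20:30, 5 for genotype by time, 2 for fasting in WT and 2 for fasting in α7HMZ. The causes were not tested.

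Signs turned only in differences that were not called. GC content and full quantile offsets gave 0.17 for Hnf4a at 13:30, 0.075 for Foxa3 and 0.28 for Cebpa at 20:30, 0.029 for Cebpb in 20:30 against 13:30 in α7HMZ, and -0.27 for Cebpa under fasting in WT. Relative log expression factors gave -0.0032 for Cebpa at 13:30, as did DESeq2 (-0.0032). Leaving out the 4 libraries gave -0.26 for Foxa1 and 0.13 for Foxa3 at 20:30, -0.10 for Onecut1 in the fed average, -0.047 for Foxa1 and 0.044 for Cebpb in 20:30 against 13:30 in WT, -0.36 for Foxa1 and 0.47 for Cebpb in the same contrast in α7HMZ, and -0.10 for Foxa1 in fasting by genotype.

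With single libraries left out, the ranges that crossed 0 were, at 13:30, -0.51 to 0.26 for Foxa1, -0.22 to 0.041 for Foxa3 and -0.041 to 0.063 for Cebpa. At 20:30 they were -0.21 to 0.025 for Foxa3 and -0.72 to 0.43 for Onecut1. In the fed average they were -0.13 to 0.039 for Foxa2, -0.018 to 0.16 for Cebpa and -0.16 to 0.74 for Onecut1. In 20:30 against 13:30 they were -0.11 to 0.19 for Foxa1 and -0.28 to 0.20 for Cebpb in WT, and -0.38 to 0.18 for Cebpb and -1.46 to 0.44 for Onecut1 in α7HMZ. For fasting in α7HMZ they were -0.50 to 0.027 for Cebpa and -0.028 to 0.41 for Nr5a2, and for fasting by genotype -0.25 to 0.18 for Foxa1, -0.42 to 0.052 for Foxa2 and -0.43 to 2.21 for Onecut1.

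Same-numbered samples had deviations correlated by -0.16 to 0.10, and 0 of 24 pairs exceeded 0.1. No strong shared effect of the replicate number was seen, but such correlations cannot show whether mice were paired. A replicate block called 1 member at 10:30, 1 at 20:30, 1 for the fed average, 1 for genotype by time, 1 for fasting in WT, 3 in fasted livers and 0 elsewhere, and it changed no call. With 3 mice a group and simulated recovery of 62.3% at 2-fold in fasted livers, smaller changes could be missed, most of all in Onecut1.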
